A study of Mus musculus with 5 samples.

Results

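CTCF binding inside protein-coding genes of 200 to 500 kb was described from 1 list of CTCF peaks in mouse fibroblasts. A peak belonged to this class when its midpoint lay on chromosomes 1 to 19 inside a protein-coding RefSeq gene, more than 1 kb from the end of any annotated gene, and when the longest such gene measured at least 200 kb and under 500 kb. The class held 1558 peaks, out of 22554 peaks on chromosomes 1 to 19 and 22756 in the whole list. Membership rested on position and gene length alone, with no measured signal. The class itself was chosen with earlier results of these data known. The cells were NIH3T3, a mouse embryonic fibroblast line, and all groups stably carried H2B-mCherry (a fluorescent histone), the rtTA3G transactivator and a TRE3G-controlled, doxycycline-inducible gene for CDX2, a homeobox factor of the intestine. The series has 5 libraries: 2 CTCF immunoprecipitations after 6 h of doxycycline at a labelled 500 ng/µL, 2 without doxycycline, and 1 input without it. Whether the line is a clone is not stated in the labels. The deposited positions form a single merged list, so no peak could be tied to a condition or replicate, doxycycline and no doxycycline were not compared, and no replicate spread exists. Read depth and peak height are unknown, and since no expression was measured the cell type was not checked against markers.

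CTCF is a zinc finger protein that binds a long, GC-rich motif. Where cohesin, extruding a chromatin loop, meets a suitably oriented CTCF molecule, the loop tends to stop there, so CTCF sites often mark loop anchors and domain borders. Inside a gene, a CTCF site lies on the path of RNA polymerase, and CTCF in gene bodies has been linked to promoter contacts and to splicing. Long genes have mostly intronic sequence, and many of them encode channels, adhesion molecules and signalling proteins of neurons.

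The sequences that could be read inside these peaks were those where a peak overlapped a RefSeq promoter window, which spans 250 bases before and 50 after a start site. In all, 336 windows lay inside their own 200 to 500 kb gene and over 1 kb from its ends, spread over 232 genes. Of these, 7 overlapped a peak of the class, and 1 further window belonged to Msl3l2, nested in Tbc1d32. Over all autosomal promoter windows, 1169 of 31396 overlapped a listed peak. The 7 stretches below are shown because they are the DNA of internal promoters that the peak itself covered. Internal here means only over 1 kb from a gene end, and some lay close to the annotated 5′ end of the gene. In Stag1, the remaining case, the peak covered no base upstream of the start site. Each is the part upstream of the start site that lay inside the peak (RefSeq, GRCm38.p6, the assembly behind mm10), written 5′ to 3′ on the strand of the gene. Capitals mark AGNNGGC, a short core of the CTCF motif, on either strand.
Cpne4: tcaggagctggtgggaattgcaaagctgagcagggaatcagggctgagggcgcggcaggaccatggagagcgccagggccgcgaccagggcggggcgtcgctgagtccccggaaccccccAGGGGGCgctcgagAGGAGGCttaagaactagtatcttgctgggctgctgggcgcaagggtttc
Msl3l2: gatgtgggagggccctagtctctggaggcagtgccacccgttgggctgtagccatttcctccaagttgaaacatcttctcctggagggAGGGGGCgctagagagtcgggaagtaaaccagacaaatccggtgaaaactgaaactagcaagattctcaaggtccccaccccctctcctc
Camk2d: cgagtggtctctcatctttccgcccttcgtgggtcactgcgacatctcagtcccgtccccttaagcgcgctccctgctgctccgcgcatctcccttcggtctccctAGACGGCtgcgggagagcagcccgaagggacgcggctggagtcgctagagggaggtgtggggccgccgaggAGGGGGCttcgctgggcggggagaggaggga
Phldb2: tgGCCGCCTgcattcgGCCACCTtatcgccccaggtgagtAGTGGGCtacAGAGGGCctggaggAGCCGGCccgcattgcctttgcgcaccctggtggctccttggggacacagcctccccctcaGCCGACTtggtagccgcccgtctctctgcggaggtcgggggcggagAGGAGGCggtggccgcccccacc
Ankrd44: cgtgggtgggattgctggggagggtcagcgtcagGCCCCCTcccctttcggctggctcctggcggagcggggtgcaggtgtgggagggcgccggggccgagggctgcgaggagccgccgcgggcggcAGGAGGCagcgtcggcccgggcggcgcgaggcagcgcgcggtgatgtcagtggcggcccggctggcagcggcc
App: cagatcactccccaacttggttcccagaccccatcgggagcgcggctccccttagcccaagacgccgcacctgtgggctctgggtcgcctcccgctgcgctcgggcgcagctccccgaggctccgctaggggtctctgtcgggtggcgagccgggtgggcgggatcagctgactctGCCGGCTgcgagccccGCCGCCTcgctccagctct
Abr: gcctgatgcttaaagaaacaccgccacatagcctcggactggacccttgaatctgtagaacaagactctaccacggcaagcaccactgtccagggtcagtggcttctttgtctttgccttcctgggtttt
The Cpne4 stretch is chr9:104569471-104569654 on the plus strand, inside a peak of 256 bp. Cpne4 encodes a copine, a calcium-dependent membrane-binding protein, and this peak lay 2.90 kb from the 5′ end of the gene. The Msl3l2 stretch is chr10:56106739-56106916 on the plus strand, inside a peak of 188 bp in Tbc1d32, a gene of ciliary signalling. The Camk2d stretch is chr3:126596743-126596950 on the plus strand, inside a peak of 219 bp at 1.36 kb from the 5′ end of this gene for a calcium-dependent kinase. The Phldb2 stretch is chr16:45844379-45844572 on the minus strand, inside a peak of 203 bp. Phldb2 encodes a protein that anchors microtubules at the cell cortex, and its peak lay deep in the gene, 109 kb from the 5′ end. The last 3 stretches are on the minus strand: Ankrd44 at chr1:54926388-54926587, App, the amyloid precursor protein gene, at chr16:85173708-85173918 and Abr at chr11:76577860-76577989. Their peaks lay 2.50 kb (Ankrd44), 1.47 kb (App) and 45.3 kb (Abr) from the 5′ end. The Cpne4, Camk2d, Ankrd44 and App peaks were thus close to the annotated start of the gene. The Ankrd44 and App stretches held 2 matches each to AGNNGGC, and the Abr stretch held 0.

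The short core is common: AGNNGGC on either strand occurred in 59.7% of 31396 autosomal promoter windows of 300 bases and in 83.2% of the 1169 windows that overlapped any listed peak. It occurred in 7 of the 8 windows at peaks of this class. The longer run AGGGGGCGC, picked after these sequences were seen, occurred in 1.28% of all windows, in 14.4% of those that overlapped a listed peak, and in 2 of the 8, Cpne4 and Msl3l2. A motif of CCANNAG followed directly by NNGGC, which contains the short core, was found in 2.47% of all windows, in 17.1% of those at a listed peak and in 1 of the 8. The 8 windows had a median GC content of 70.7%, against 53.0% over all windows. These are descriptions of letters and not of measured binding sites.

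Genes of this length usually held at least 1 peak, but few held many. Of 722 genes with sequence of their own under the rule, 527 (73.0%, exact 95% interval 69.6 to 76.2%) held at least 1 peak and 195 held none. Over 17708 protein-coding genes of any length, 30.5% held a peak under the same rule, a share that rises with gene length. The mean was 2.16 peaks per gene (SD 2.55 over 722 genes), the median 1 and the highest count 27. A single peak lay in 167 genes, 2 in 123 genes, 3 in 87 and 4 in 64. The 58 genes with at least 6 peaks held 488 peaks, 31.3% of the class, and the 14 genes with at least 10 held 186. The variance of the counts was 3.01 times their mean. Across genes of the class, the number of peaks rose little with length (Pearson r = 0.14, Spearman correlation 0.11 over 722 genes, which share chromosomes and neighbourhoods). Binomial intervals here cover counting error only and treat neighbouring peaks as independent. The 7 remaining genes of this length, Filip1l and 6 protocadherin alpha genes, had no sequence outside longer genes and gene ends.

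**Figure D1:**
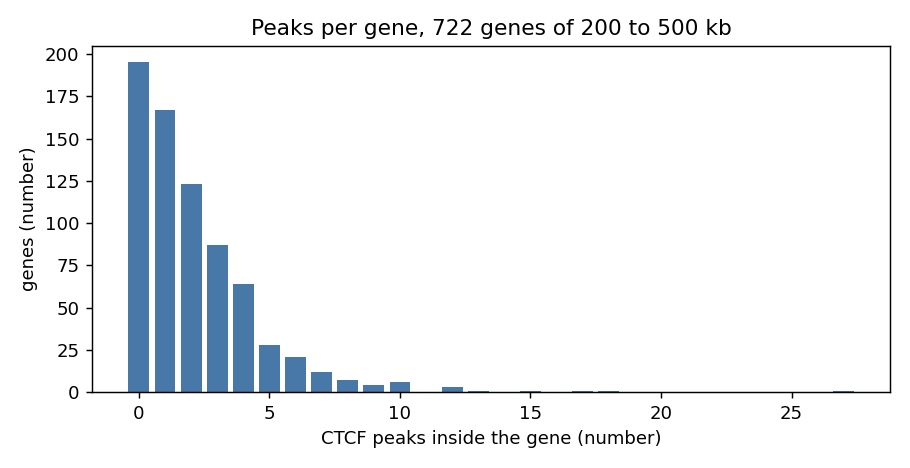
Number of genes (y axis) by number of CTCF peaks inside the gene (x axis), for 722 protein-coding genes of 200 to 500 kb. The bar at 0 holds 195 genes, and the single gene at 27 peaks is Slc39a11.

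Per unit of length, genes of 200 to 500 kb stood between shorter and longer genes. The sequence that could hold a peak of the class came to 214 Mb, and the peaks in it to 7.29 per Mb. Genes under 200 kb held 7446 peaks at 14.0 per Mb, so the density of this class was 0.520 of theirs. Genes of 500 kb or more held 608 peaks at 3.44 per Mb, and the class was 2.12 times as dense. Density fell from 24.0 per Mb in genes under 20 kb, through 17.1 at 20 to 50 kb and 12.5 at 50 to 100 kb, to 9.68 at 100 to 200 kb. Within the class it was 8.00 at 200 to 250 kb, 8.46 at 250 to 300 kb, 6.71 at 300 to 350 kb, 6.24 at 350 to 400 kb, 7.01 at 400 to 450 kb and 6.23 at 450 to 500 kb. The decline across the class was uneven, and the next bin, of 500 kb or more, was lower than any within it. The share of genes with a peak was 70.0%, 74.7%, 75.9%, 67.5%, 79.7% and 75.5% in the same 6 bins, with no steady rise, against 60.4% at 100 to 200 kb and 80.7% at 500 kb or more. Differences between length classes were not tested, because the list holds no replicate.

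**Figure D2:**
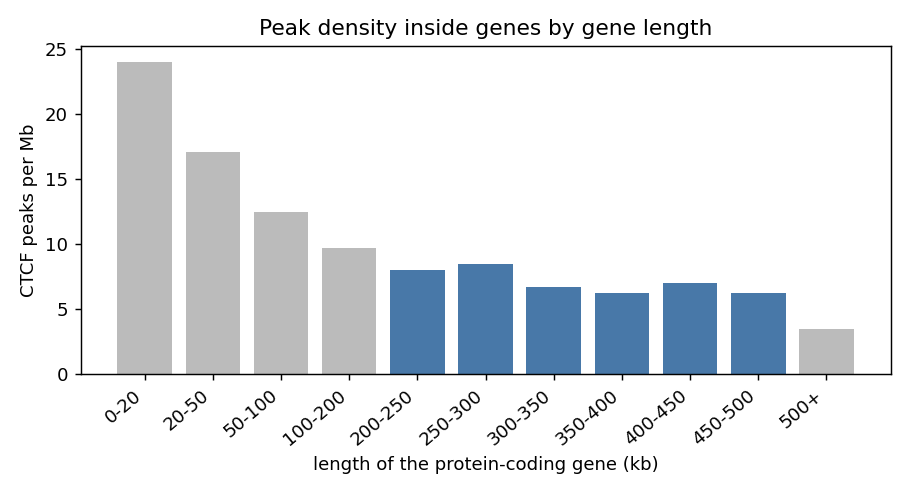
CTCF peaks per Mb inside protein-coding genes (y axis) by gene length in kb (x axis), over 1 kb from any gene end on chromosomes 1 to 19. Blue bars are the 200 to 500 kb class, between 6.23 and 8.46 per Mb, and grey bars are shorter and longer genes.

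The genes nearest to the length borders are given as a description. Just inside the lower border, Plcxd3 (200.1 kb) held 0 peaks and Pcbp3 (200.3 kb), a gene for an RNA-binding protein, held 2. Just outside it, Atp9b (199.9 kb) held 1 and Sergef (199.7 kb) held 2. At the upper border, Dnm3 (495.9 kb), a dynamin gene of membrane fission, held 6 and Lrrc7 (494.8 kb), which encodes a synaptic scaffold, held 2. Beyond it, Edil3 (501.8 kb) held 0 and Dock1 (503.0 kb), an activator of the small GTPase Rac, held 1. Of 1639 peaks in the genes of the class at any distance, 81 were left out because a gene end lay within 1 kb. The nearest peaks kept lay 1001 bp (Atp8a1), 1034 bp (Mgat5) and 1038 bp (Thada) from a gene end, and the nearest left out lay 1000 bp (Col23a1), 978 bp (Dst) and 969 bp (Nf1) from it.

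The order of the 3 length classes was the same on all 19 autosomes. The class density was 0.361 to 0.736 of that of shorter genes and 1.22 to 3.23 times that of longer genes, chromosome by chromosome. Chromosome 11 was the densest, with 194 peaks in 41 genes and 15.9 per Mb. It held 12.5% of the class peaks on 5.70% of the class sequence. The chromosome was rich in peaks of all kinds: of its 2527 listed peaks 7.68% were of the class, against 6.91% over all autosomes. Chromosome 19 followed with 57 peaks in 18 genes and 12.4 per Mb. Chromosomes 8 and 5 were at 9.06 and 8.94 per Mb. Chromosome 8 fell to 7.26 per Mb without Cacna1a, its fullest gene, while chromosome 11 was still at 14.2 per Mb without Slc39a11. The sparsest were chromosome 12 with 40 peaks in 36 genes (3.87 per Mb), of which 18 held none, and chromosome 13 with 46 peaks in 32 genes (4.64 per Mb). Across the 19 chromosomes, class density went with the density in shorter genes of the same chromosome (Pearson r = 0.87, a description).

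**Figure D3:**
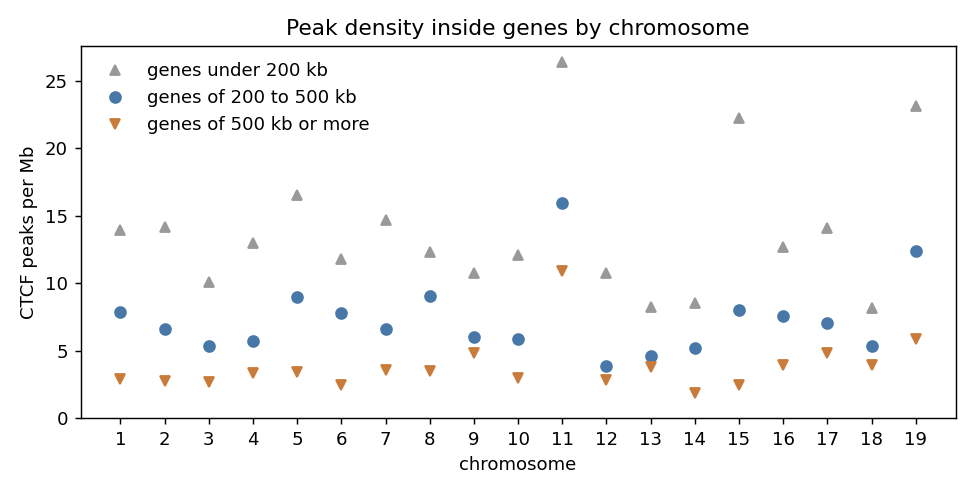
CTCF peaks per Mb inside genes (y axis) on each autosome (x axis): genes under 200 kb (grey triangles), 200 to 500 kb (blue circles) and 500 kb or more (orange triangles). On each of the 19 chromosomes the circle lies between both triangles, and it is highest on chromosome 11 at 15.9 per Mb.

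Slc39a11, which encodes a zinc transporter, was the fullest gene of the class. It spans chr11:113244851-113650200 on the minus strand and held 27 peaks, 7.06 per 100 kb. The peaks came in 3 groups separated by gaps: 7 lay 4.3 to 44.3 kb from the 5′ end, 11 between 137.9 and 252.6 kb and 9 between 299.4 and 389.2 kb. The stretch of 93.6 kb without a peak between the first groups was the longest in the gene. Widths ran from 186 to 512 bp. Of the 27 peaks, 1 also lay in Sstr2, a somatostatin receptor gene, and 3 in gene models without an assigned function.

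Rbfox3, the gene of the neuronal splicing factor NeuN, came next with 18 peaks (chr11:118489760-118911597, minus strand, 4.33 per 100 kb). Only 2 of them lay in the first 135 kb, at 4.1 and 30.5 kb. Its peaks included 2 of the widest of the class, 800 bp and 702 bp, at 172.8 and 171.2 kb from the 5′ end. Cacna1a, the gene of a presynaptic calcium channel (chr8:84338631-84640251), held 17 peaks, of which 5 lay between 253.6 and 275.9 kb from its low-coordinate end. The strand of Cacna1a was not given in the tables used here. Sdk2 (chr11:113776374-114067029, minus strand), a synaptic adhesion gene, held 15 peaks. Its longest peak-free stretch, 52.5 kb, was the shortest among these 4 genes.

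Gse1 on chromosome 8, which encodes a coiled-coil protein of co-repressor complexes, held 13 peaks, 11 of them between 53.2 and 176.2 kb from the 5′ end. Agap1 and Dst on chromosome 1 and Snx29 on chromosome 16 held 12 each. Agap1 encodes a GTPase-activating protein of membrane traffic, Dst a cytoskeletal linker and Snx29 a sorting nexin. In Dst, 5 peaks lay between 282.3 and 310.6 kb, after 121.7 kb without a peak of the class; a peak 978 bp from the end of another gene, left out by the rule, lay in that stretch. Atxn1, Itpr2, Ksr2 and Pitpnc1 completed the 12 fullest with 10 each. In Ksr2, the gene of a scaffold of the Ras pathway (chr5:117414002-117767996, plus strand), 7 of the 10 peaks were packed between 80.2 and 102.8 kb. Itpr2, an intracellular calcium channel gene, had none in the last 150.1 kb of its 394.0 kb. Sh3pxd2a and Tbc1d22a also held 10 but ranked after these by symbol. Of the 12 fullest genes, 4 lay on chromosome 11, and of the 25 genes with at least 8 peaks 8 did, against 41 of all 722 genes of the class.

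**Figure D4:**
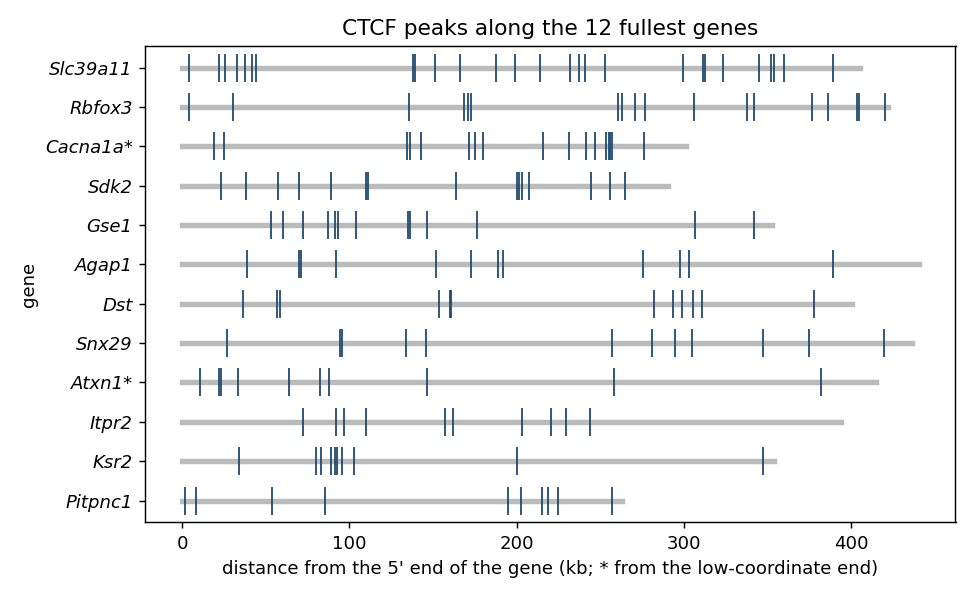
Position of each CTCF peak (dark ticks, midpoint) along the 12 fullest genes (grey bars, y axis), in kb from the 5′ end (x axis). Genes with an asterisk, Cacna1a and Atxn1, are drawn from the low-coordinate end because their strand was not given; peaks are grouped with long empty stretches in most genes.

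Per 100 kb, Slc39a11 led with 7.06, followed by Cacna1a with 5.94, Sdk2 with 5.41 and Sh3pxd2a with 5.31. Sh3pxd2a encodes a podosome scaffold and packs its 10 peaks into 204.4 kb on chromosome 19. Rbm20, a splicing factor gene on the same chromosome, held 8 peaks at 4.35 per 100 kb, or 5 peaks when 2.5 kb around gene ends was left out. Rbfox3 had 4.33, Abr 4.06 and Pitpnc1, a phospholipid transfer protein gene, 4.05. In the 100 kb beyond each end, Slc39a11 had 10 peaks, Cacna1a 12, Sh3pxd2a 10 and Pitpnc1 15, so these genes also had crowded surroundings. Itpr2 and Snx29 had 1 peak each there, so a full gene did not always lie among many outer peaks.

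The 10 longest genes without a peak measured 472.2 to 491.7 kb. Gabrb1 (491.7 kb, chromosome 5), a GABA receptor subunit gene, Kcnh7 (490.9 kb, chromosome 2), a potassium channel gene, and Chrm3 (485.6 kb, chromosome 13), a muscarinic acetylcholine receptor gene, held 0. Diaph3 (485.9 kb), which encodes a formin that builds actin filaments, and Sema3a (478.7 kb), an axon guidance cue gene, also held 0. Skint6 (482.4 kb), Zfp993 (478.6 kb) and 2210408I21Rik (478.3 kb) are empty as well. Skint and zinc finger genes have similar copies, to which short reads cannot always be assigned, and a count of 0 there is uncertain. Dok6 (477.1 kb) and Xkr4 (472.2 kb) complete the 10. In the 100 kb beyond each end, 0 peaks were listed for Gabrb1, Diaph3, 2210408I21Rik, Dok6 and Xkr4, and 1 to 3 for the other 5. Of the 10 genes of the class named as Gm or Rik models, 0 held a peak. An unlisted region may have lacked reads.

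Empty genes lay in sparser surroundings than full ones, and the fullest were also longer. The 195 genes without a peak had a median length of 279.6 kb and 6.82 peaks per Mb in the 100 kb beyond each end, and 37.9% of them had none there. Genes with 1 or 2 peaks (290 genes, median 281.9 kb) had 11.2 per Mb outside, those with 3 to 5 (179 genes, 283.6 kb) had 14.8 and those with at least 6 (58 genes, 333.5 kb) had 26.0. Only 1 of these 58 genes had no peak within the flanks. The number of other protein-coding genes reaching into the gene or its flanks rose alongside, from a median of 1 for empty genes to 2 for genes with 1 to 5 peaks and 3 for genes with at least 6. The part of gene density in these values was not tested.

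Among peaks over 1 kb from any gene end, density was highest toward the 3′ end of the gene. Peaks within 1 kb of an end lie outside these counts: 35 of 537 genes had one at the 5′ end and 13 at the 3′ end. The direction of transcription was given for 537 of the 722 genes, with 1176 peaks. The last 10% of the gene held 196 of these, 16.7% (14.6 to 18.9%) on 9.71% of the sequence, or 12.7 per Mb. The first 10% held 111, 9.44% (7.83 to 11.3%) on 9.71% of the sequence, or 7.18 per Mb. Between them, density was lowest at 5.30 per Mb in the seventh bin of 10, rose to 7.20 in the eighth and reached 10.3 in the ninth. The first 50% of the gene held 524 peaks, 44.6% (41.7 to 47.5%) on 50.1% of the sequence. In distance, peaks stood at 20.0 per Mb between 1 and 5 kb from the 3′ end and 11.1 at 5 to 10 kb. Further in, density was 13.0 at 10 to 20 kb and 10.9 at 20 to 50 kb. It was 7.36 at 50 to 100 kb and 6.44 at 100 to 150 kb. From the 5′ end, peaks stood at 12.6 per Mb between 1 and 5 kb and 7.63 at 5 to 10 kb. Values of 4.76 at 10 to 20 kb and 6.51 at 20 to 50 kb followed. At 50 to 100 kb density was 7.53 and at 100 to 150 kb 6.05. Close to the start, then, density fell within 20 kb and was higher again beyond. From the 3′ end the largest drop came within 10 kb, followed by an uneven decline.

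**Figure D5:**
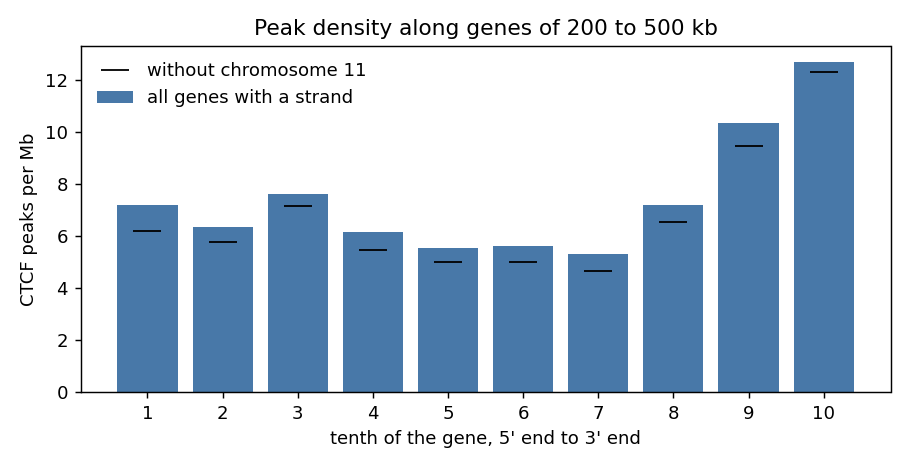
CTCF peaks per Mb (y axis) in 10 equal bins along the gene from 5′ to 3′ end (x axis), for 537 genes of 200 to 500 kb with a given strand; black marks leave out chromosome 11. The last bin stands at 12.7 per Mb against 7.18 in the first.

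The lean toward the 3′ end was found in most parts of the class. The density in the last 10% was above that of the middle 80% on 17 of the 18 chromosomes with given strands, the exception being chromosome 16, and above that of the first 10% on 14 of 18. It was 2.10 times the middle in 288 genes on the plus strand and 1.63 times in 249 on the minus strand. In genes with 1 or 2 peaks the ratio was 2.09 and in genes with 3 to 5 peaks 2.23, but in the 45 genes with at least 6 it was 1.26. Where a gene held a single peak, it lay in the last 10% in 25 of 129 genes and in the first 10% in 13. Chromosome 11 had the ratio 1.14, and without it the ratio was 2.00. The same lean was present in other lengths: 2.05 in genes of 500 kb or more, 1.70 at 100 to 200 kb and 1.48 at 50 to 100 kb. It was thus no property of this class alone. Outside the genes, the 100 kb after the 3′ end held 13.2 peaks per Mb and the 100 kb before the 5′ end 11.4.

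Examples, picked after their values were seen, lay at both extremes. All 5 peaks of Plcb4, a phospholipase C gene on chromosome 2, lay between 299.3 and 343.7 kb of its 356.0 kb. In Palld, which encodes the actin-bundling protein palladin, all 4 lay between 352.1 and 386.4 kb of 391.3 kb. Slc24a3, a sodium, potassium and calcium exchanger gene, had its 5 peaks between 349.7 and 445.5 kb of 474.4 kb. Mylk, the myosin light chain kinase gene of contractile cells, had 4 between 175.2 and 231.5 kb of 257.2 kb. Dnm3 was the opposite, with all 6 peaks between 39.6 and 191.2 kb of 495.9 kb.

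Distances between peaks of a gene stood between those of shorter and longer genes. The median distance between neighbouring peaks of 1 gene was 27.4 kb (quartiles 9.51 and 73.1 kb, 1031 distances), and 268 of them (26.0%, 23.3 to 28.8%) were under 10 kb. The median was 8.51 kb in shorter genes, where the gene itself limits the distance, and 66.7 kb in genes of 500 kb or more. The share under 10 kb was 55.2% in shorter genes and 14.2% in genes of 500 kb or more. The closest pair, 343 bp apart, lay in Dennd1a, a gene of endocytosis, at chr2:37948530-37948714 and chr2:37948863-37949067. It was followed by pairs in Pdzd2 (431 bp) and in Caln1, a calcium-binding protein gene (467 bp). At the other extreme, 228 of the 527 genes with a peak had a stretch of at least 200 kb without a peak of the class. The longest distance between 2 neighbours was 340.8 kb in Reln, the gene of the matrix protein reelin. The most isolated peak of the class, the only one in the cadherin gene Cdh8 (chr8:99051430-99051630), lay 1323 kb from the nearest listed peak.

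Peaks of the class were narrower than the list as a whole. The median interval spanned 251 bp (quartiles 212 and 299 bp, range 170 to 800 bp), against 262 bp over all autosomal peaks, 266 bp inside shorter genes, 244 bp inside longer genes and 278 bp within 1 kb of a gene end. Intervals of at least 500 bp made up 2.05% of the class (32 peaks) and 4.05% of all autosomal peaks. The 3 widest were 800 bp in Rbfox3, 757 bp in Pip5k1b, a phosphoinositide kinase gene on chromosome 19, and 724 bp in Cacna1a. Whether width follows read depth could not be seen in the list, and its part was not tested.

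Grouped by the role of the protein, 301 of the 722 genes fell into 13 lists based on gene symbols, 7 of them into more than 1. Against 7.29 peaks per Mb and 73.0% of genes with a peak over the class, the lists ranged widely, and small lists hung on single genes. These are counts without a test. Exons were not given in the gene table, so exonic and intronic peaks were not told apart.

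Cytoskeleton and small GTPase regulators formed the largest list, with 175 peaks in 59 genes. A peak lay in 52 of them (88.1%), the median was 2 and the density 10.1 per Mb, or 9.62 without Dst. Dnah8, an axonemal dynein gene, held 9, Ank3, the gene of a membrane anchor of the axon, 8 and the guanine exchange factor gene Trio 7. The 7 without a peak were Diaph3, Dlc1, Dnah11, Kif16b, Map2, Myo3a and Vav3. In the list of fibroblast contractile and adhesion genes, the 8 members of this length held 1 to 4 peaks (7.59 per Mb). Mylk and Palld had 4, and Tln2, the gene of an integrin-linked talin, had 2. Runx1, Tcf4 and Tead1, with 2 each, are transcription factor genes and were counted in that list too. Adhesion and matrix genes such as Cdh2, Ptk2 and Fbn1, with 0 peaks, stood in other lists, so the count rests on which genes the list names. The extracellular matrix list held 45 peaks, with a peak in 19 of 23 genes (6.71 per Mb), and took in by its symbol Vwa8 (1 peak), a mitochondrial ATPase gene. Adamts2, a procollagen protease gene, Col23a1, a transmembrane collagen gene, and Ltbp1, whose protein tethers latent TGF-beta, held 5 each. Fbn1, the gene of the microfibril protein fibrillin 1, and Mmp16 held 0.

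With all members counted, the list of transcription factors had the lowest density of the 13. The rank hung on single genes. Without the fullest gene, this list stood at 4.29 per Mb, above the synaptic and axon guidance list at 3.45. It held 65 peaks in 43 genes, 4.75 per Mb, and 25 (58.1%) had a peak. Its symbol patterns also took in the cofactor genes Maml2 (0 peaks), Maml3 (1) and Zfpm2 (2). Myt1l, a factor of neurons, held 8, Hivep3 6 and Zfp469 5. Among the 18 without any were the developmental regulators Ebf1, Gli3, Meis2, Mitf, Nfib, Runx2 and Tcf12. Zfp978 and Zfp993 were also empty, which is uncertain in zinc finger genes, as said above. RNA-binding and chromatin regulators held 62 peaks in 19 genes, 11.3 per Mb, with a peak in 14. This fell to 8.70 per Mb without Rbfox3. Atxn1, whose protein is mutated in a spinocerebellar ataxia, held 10 and Celf4, a neuronal splicing regulator gene, 6, while Setbp1 (360.1 kb) held 0.

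Among membrane proteins, ion channels and ligand-gated receptors held 89 peaks in 39 genes, 6.50 per Mb, and 26 (66.7%) had a peak. Behind Cacna1a and Itpr2, Kcnip1, a modulator of potassium channels, held 8, and Cacna1d and Kcnq3 held 5. The 13 empty genes included 5 of the Kcnh and Kcnt potassium channels, Kcnh1, Kcnh5, Kcnh7, Kcnh8 and Kcnt2, a grouping made after the values were seen. Synaptic and axon guidance surface proteins held 33 peaks in 16 genes, 6.00 per Mb, but 15 lay in Sdk2 and without it the density was 3.45 per Mb. Ncam1 and Sema3e held 3. Of 7 cadherin genes, 6 held a peak, with 7 in Cdh4 and 5 in Cdh23, a gene of hair cell tip links, and 0 in Cdh2, the N-cadherin gene. Transporters held 68 peaks in 22 genes, 9.53 per Mb, or 6.07 without Slc39a11. Slc2a13 held 6, while Slc35f1 (421.1 kb) held 0.

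Among signalling genes, protein kinases and their anchors held 60 peaks in 29 genes, 7.26 per Mb, with a peak in 23. Prkca held 7, Prkag2, a subunit gene of the energy sensor AMPK, 6 and Prkce 5, while Prkd1 held 0. The symbol pattern of this list also took in Camkmt, a methyltransferase gene with 3 peaks. Lipid, cyclic nucleotide and phosphatase genes held 73 peaks in 29 genes, 8.58 per Mb, with a peak in 23. Behind Pitpnc1, the phosphodiesterase gene Pde11a held 7 and Tns1, the gene of a focal adhesion protein, 6, while Rgs7 (433.8 kb) held 0. Growth factor and morphogen receptors held 24 peaks in 13 genes, 5.83 per Mb, or 4.52 without Sorcs2. This list also took in by symbol Ldlrad3 and Ldlrad4 (1 peak), genes named for a domain of the LDL receptor. Sorcs2 held 7, Ldlrad3 4, Bmpr1b 3 and Igf1r 2, and Ephb1, Epha3, Epha5 and Ntrk2 held 0. The list of intestinal and CDX2-related genes had 1 member of this length, Plcb4, with the 5 peaks given above.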

How the data were processed

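Chromatin of NIH3T3 cells was immunoprecipitated with a CTCF antibody together with a Drosophila spike-in, per the labels' protocols,, and both ends of the fragments were sequenced. Tools listed by the submitters' processing notes are STAR, Picard and MACS2, with the builds mm10 and dm6. For the peak threshold, the merging of conditions and the use of the spike-in, the sources used here give no detail. The authors' deposited list has 3 columns (chromosome, start, end), no score and 0 overlapping intervals, and read depth is unknown. Coordinates are on mm10, counted from 1.

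Genes came from RefSeq (GRCm38.p6, 49997 rows). On chromosomes 1 to 19, 328 genes placed below 3 Mb were left out, since those positions appear to be counted on scaffolds, and 20556 protein-coding genes remained. Every base was given to the longest protein-coding gene that covers it, and bases within 1 kb of any gene end were removed. Densities use this sequence, a median of 97.6% of a gene of the class. Strand came from the RefSeq promoter table, in which overlapping windows of opposite strands matched as reverse complements in 1863 of 1863 cases. The placement code was tested on simulated data. Analyses used Python 3.11.15, pandas 2.3.3 and scipy 1.17.1, with exact (Clopper-Pearson) 95% intervals.

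The class and the lists were chosen with earlier results of these data known. Named genes were the 12 with most peaks, the 8 densest with at least 4, the 10 longest empty genes, up to 3 fullest and the longest empty gene per list, and 2 genes on each side of a length border, besides the widest, closest and border peaks. Others, such as the further empty genes, were named after their values were seen.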

Additional observations from a re-analysis of the deposited data

How the results depend on the processing

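Of 122 values of the main results under 11 alternative settings and equal weighting of genes, 18 moved. Direction was judged only for the density ratios to shorter and to longer genes, and 0 of these changed direction. Shares, densities, ratios and means counted as moved outside the counting interval of the main value, and the number of peaks in the class only beyond 1.5 times, so 1456 peaks with 2.5 kb around gene ends left out and 1364 without chromosome 11, against 1558, are not among the 18. The setting without Slc39a11, equal weighting and all values for the last 10% of the gene were added after seeing the data. With intervals of at least median width (262 bp), the class held 686 peaks, 6.05% of autosomal peaks, at 3.21 per Mb. Under that setting the density was 0.437 of shorter and 2.49 times that of longer genes, 48.5% of genes held a peak, the mean was 0.950 per gene, the median width 305 bp and 22.9% of neighbours were under 10 kb apart. This setting keeps fewer intervals. With genes of 250 to 450 kb as the class, and shorter and longer genes bounded accordingly, there were 981 peaks, 4.35% of autosomal peaks and 2.32 per gene, and the ratio to longer genes was 1.91. With 2.5 kb around gene ends left out, the share of autosomal peaks was 6.46%, the mean 2.02 per gene and the share in both outer bins of 10% of the gene 24.7%, against 27.3% in the main setting. Without chromosome 11, density was 6.77 per Mb and the mean 2.00 per gene. The ratio to shorter genes stayed between 0.437 and 0.539 and the ratio to longer genes between 1.91 and 2.49. Of 673 counts of named genes under the alternatives, 636 were within 1.5 times the main count, and 36 of the 37 others came with intervals of at least median width. The remaining one was Rbm20, with 5 peaks in place of 8 when 2.5 kb around gene ends was left out. No paired analysis was possible because the list is not divided by sample, and for the same reason no replicate could be left out. Depth is unknown, so an empty gene may lack reads.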

Other observations

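Few of these long genes had a peak at an end. An end is a short window here, so a low share of genes does not mean a low density per base. Peaks per Mb were not computed for the ends. Of the 537 genes with a given strand, 35 (6.52%, exact 95% interval 4.58 to 8.95%) had a peak within 1 kb of the 5′ end and 13 (2.42%, 1.30 to 4.10%) within 1 kb of the 3′ end, and 0 had both. In genes under 200 kb the shares were 8.85% and 5.40%, and in genes of 500 kb or more 4.17% and 0 of 168. A 5′ end peak was listed for Dst, Ltbp1, Tns1, Cdh23 and Ephb1, and Ephb1, the gene of an axon guidance receptor, held no peak inside. Among genes with at least 6 inner peaks, 5 of 45 had a 5′ end peak, against 4 of 140 among genes with none. For the 3′ end the counts were 2 of 45 (4.44%) and 5 of 140 (3.57%). All of these counts are small.

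Few of the class peaks lay in a second gene. A lncRNA gene covered 78 of the 1558 (5.01%, 3.98 to 6.21%) and 4.22% of the sequence, at 8.65 peaks per Mb against 7.23 elsewhere. Another protein-coding gene covered 14 peaks and 0.703% of the sequence.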
